A study of Mus musculus with 57 samples.

Results

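The mononuclear phagocyte genes described here are 39 genes that mark or serve monocytes, macrophages and related dendritic cells, measured in whole kidneys of 3 lupus-prone mouse strains. They were chosen by name as a functional group, with earlier results of these data known, and make up 39 of the 16475 genes on the arrays. All 39 had a row in each strain's table: 37 under the same symbol, Spi1 under its older name Sfpi1 and Wfdc17 under Gm11428, both matched by gene ID. The authors flagged 37 of the 39 as expressed in NZB/W and in NZM2410, and 38 in NZW/BXSB. Arg1 carried the flag in no strain and Marco only in NZW/BXSB.

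Mononuclear phagocytes enter the kidney from blood as monocytes or live there as resident macrophages, and they depend on signals through the CSF1 receptor and on the transcription factor PU.1, which Spi1 encodes. They sense microbes and immune complexes, engulf dead cells, make reactive oxygen through the phagocyte NADPH oxidase, and present antigen. In lupus nephritis, immune complexes lodge in the glomeruli and phagocytes gather there and between the tubules.

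Whole-kidney RNA of 57 samples was hybridized to Affymetrix arrays, and the deposited values are log2 levels, so that a difference of 1 is a doubling. The NZB/W mice, a hybrid lupus model, formed 4 groups: 16 weeks old, prenephritic and without proteinuria (n = 8), 23 weeks old without proteinuria (n = 11), 23 weeks old at the onset of proteinuria (n = 6), and 36 weeks old, nephritic and proteinuric (n = 10). The inbred NZM2410 strain gave prenephritic kidneys of young mice (n = 5) and nephritic kidneys of sick mice (n = 5). The NZW/BXSB hybrid gave prenephritic, non-proteinuric kidneys (n = 6) and nephritic, proteinuric kidneys (n = 6). The labels state no treatment, sex or engineered allele for any group, and no age for NZM2410 or NZW/BXSB. No lupus-free strain was analysed here, and every comparison is between stages of disease. For the 36-week group 1 field of the labels reads prenephritic while another reads nephritic, and the latter was followed; the onset group is called prenephritic there too. The labels do not say that samples of a group are different animals. The p-values therefore describe the spread among these samples, some of which may be technical.

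Markers of kidney epithelium were high in every group: the mean level of 9 such markers was at least 10.22 in all samples. No arrays held identical values. Hybridization controls, RNA spiked in just before hybridization, were brighter in onset kidneys (9.97 ± 0.20, SD, n = 6) than in 23-week non-proteinuric kidneys (9.29 ± 0.18, n = 11), with no overlap (two-sided exact permutation test, p = 0.000162, adjusted p = 0.00388 over 24 such tests). They were dimmer in the 23-week non-proteinuric than in the 16-week kidneys (9.73 ± 0.36, n = 8; exact permutation p = 0.00037, adjusted p = 0.00445). The 3′ minus 5′ signal of Gapdh, which grows as RNA degrades, reached 0.46 in onset replicate 5, against −0.03 to 0.09 in the other onset samples; 36-week kidneys ran from −0.05 to 0.57. Among 16-week kidneys this signal was 0.10 to 0.14 in replicates 1 to 3 and −0.08 to −0.01 in replicates 4 to 8. Poly-A controls, another RNA spiked in, were at 6.76 to 7.06 in the former and 7.99 to 8.82 in the latter. None of the other 22 tests of control signals passed at an adjusted p of 0.05.

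Promoters of 4 members that rose in NZB/W nephritis are shown to let the reader see the PU.1-type letters they carry. RefSeq (GRCm38.p6) gave 30 promoters of 300 bases (250 before the start and 50 after) for 26 of the 39 members. PU.1 binds purine-rich DNA with a GGAA core, and 2 such motifs were searched on both strands, GAGGAAG and AGAGGAA, which can overlap each other. At least 1 of them was present in 16 of the 30 member promoters (53.3%), belonging to 14 members, and in 2840 of 16114 promoters of all measured genes (17.6%). GAGGAAG alone was in 10 member promoters and 13% of all, and AGAGGAA in 11 and 9.53%. Below are the 4 matching members, with 1 promoter of each, that had the highest change between 16 and 36 weeks; capitals mark the motif, which lies on the reverse strand in each. Lyz2 and Cybb, also among the members that changed most, had neither motif in their windows, nor did the other Clec4a3 promoter. Cd52 and Cd14, which rose strongly too, had no promoter among the 30. A match is a string of letters and shows no binding.
Clec4a3 promoter: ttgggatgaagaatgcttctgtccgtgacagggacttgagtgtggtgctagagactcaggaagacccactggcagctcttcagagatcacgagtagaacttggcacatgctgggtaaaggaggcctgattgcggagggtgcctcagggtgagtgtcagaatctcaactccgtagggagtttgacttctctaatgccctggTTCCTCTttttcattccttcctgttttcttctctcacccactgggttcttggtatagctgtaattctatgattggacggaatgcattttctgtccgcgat
Cd53 promoter: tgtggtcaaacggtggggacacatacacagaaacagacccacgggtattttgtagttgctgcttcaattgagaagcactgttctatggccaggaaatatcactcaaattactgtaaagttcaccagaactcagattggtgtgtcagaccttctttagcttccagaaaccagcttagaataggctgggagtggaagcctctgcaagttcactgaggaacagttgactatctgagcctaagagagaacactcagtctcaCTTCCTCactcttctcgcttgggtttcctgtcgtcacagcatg
Wfdc17 promoter: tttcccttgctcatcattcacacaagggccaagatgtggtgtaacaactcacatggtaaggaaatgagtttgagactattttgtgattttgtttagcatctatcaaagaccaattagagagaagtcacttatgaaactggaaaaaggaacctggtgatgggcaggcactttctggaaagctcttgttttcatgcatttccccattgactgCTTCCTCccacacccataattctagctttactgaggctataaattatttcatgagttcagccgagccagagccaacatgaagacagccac
Cd68 promoter: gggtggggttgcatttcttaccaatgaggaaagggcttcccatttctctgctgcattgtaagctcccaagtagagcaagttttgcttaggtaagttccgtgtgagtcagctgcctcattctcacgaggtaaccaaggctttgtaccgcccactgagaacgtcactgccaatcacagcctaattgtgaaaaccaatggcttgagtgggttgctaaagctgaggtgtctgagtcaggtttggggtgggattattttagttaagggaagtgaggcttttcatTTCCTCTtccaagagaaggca
They lie at chr6:122952394-122952693 on the plus strand (Clec4a3), chr3:106790100-106790399 on the minus strand (Cd53), chr11:83703806-83704105 on the plus strand (Wfdc17) and chr11:69666121-69666420 on the minus strand (Cd68). Counting the start base as 1 and the base before it as −1, the motifs span −50 to −44 in Clec4a3, 8 to 14 in Cd53, −40 to −34 in Wfdc17 and 30 to 36 in Cd68.

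A score gave each sample 1 value: the mean over the 39 genes of the log2 level minus that gene's mean in the 16-week or prenephritic group of the same strain. In NZB/W it stayed near 0 until proteinuria. It ran from −0.07 to 0.16 at 16 weeks (SD 0.075) and from −0.04 to 0.31 in the 23-week non-proteinuric kidneys (mean 0.11 ± 0.11). Onset kidneys spread widely, from 0.19 in replicate 1 to 1.22 in replicate 5 (0.65 ± 0.41, n = 6), and 36-week kidneys ran from 0.53 to 1.5 (0.98 ± 0.35, n = 10). Onset kidneys thus overlapped the non-proteinuric ones at their low end and the nephritic ones at their high end. Nephritic NZM2410 kidneys scored 0.63 to 1.21 (0.92 ± 0.27, n = 5), far above their prenephritic spread (SD 0.045). Prenephritic NZW/BXSB kidneys varied more among themselves, from −0.37 in replicate 3 to 0.29 in replicate 5 (SD 0.25), and the nephritic ones lay at 0.52 to 0.86 (0.70 ± 0.14, n = 6). In each strain the nephritic samples lay above every 16-week or prenephritic sample. The score is a description of a list chosen with results known and carries no test.

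**Figure D1:**
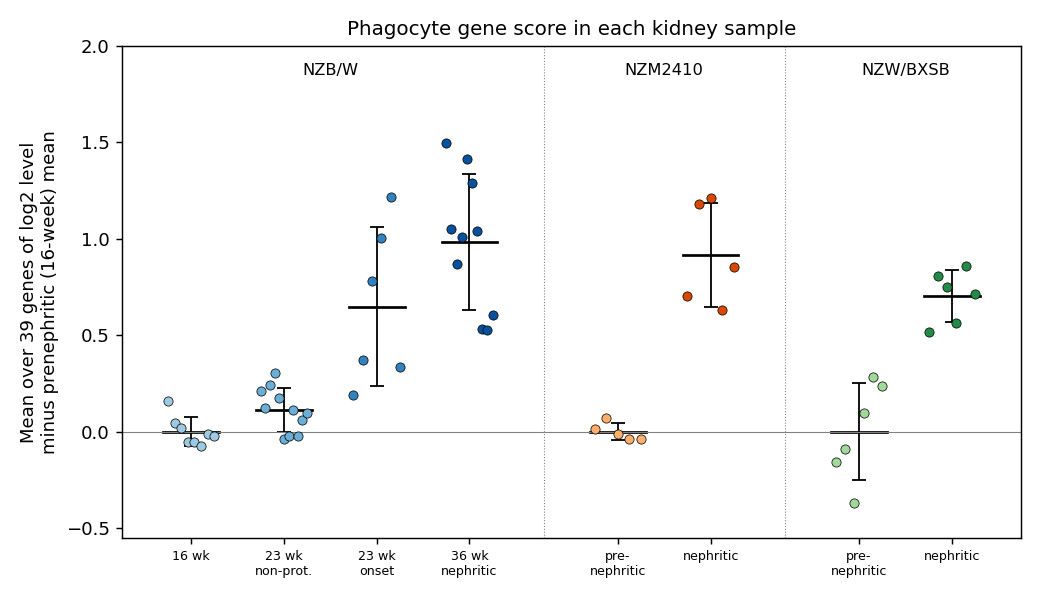
Score of the 39 phagocyte genes in each sample (points), by group, on a log2 scale; horizontal bars are means and vertical bars SD. Onset NZB/W kidneys run from 0.19 to 1.22, between the 23-week non-proteinuric (−0.04 to 0.31) and the 36-week kidneys (0.53 to 1.5), and the nephritic groups of all 3 strains lie above their starting groups.

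Some 23-week kidneys share a title stem, which may mark mice kept together, though the labels do not say so. Within 1 stem, non-proteinuric replicates 6 and 9 scored −0.04 and −0.02 and onset replicates 2 and 4 scored 0.37 and 1.0. In NZW/BXSB, 2 stems held 1 sample of each stage, and the score was 0.10 before and 0.86 with nephritis in the one, 0.24 and 0.81 in the other. The 5 non-proteinuric kidneys of another stem, replicates 1 to 5, scored 0.12 to 0.31, and the other 6 scored −0.04 to 0.11. Whether cage, batch or disease stage moves with the stems was not tested.

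The comparison of 23-week non-proteinuric with 16-week NZB/W kidneys asks what age brings before proteinuria. No member passed in either direction at an adjusted p under 0.05 (limma, Benjamini-Hochberg over 16475 genes), where 0.0182% of all genes were called higher, 0% lower, and 0.0303% did not overlap. The median change of the 39 was 0.09 on the log2 scale, against 0.01 over all genes, and 34 lay above 0. It was −0.02 when samples sharing a stem were blocked together, and 0.16 with 16-week replicates 4 to 8 only, a choice made after seeing the data. The replicates left out there had higher Gapdh and lower poly-A control signals than those kept. Lyz2, the lysozyme of macrophages and other myeloid cells, had the largest value at 0.58 ± 0.24 (SE; adjusted p = 0.82), and Axl, a receptor for dying cells, had 0.32 ± 0.12 (adjusted p = 0.82). At an unadjusted p under 0.05, 2 members passed, with 5.85% of all genes. A fit with array weights, which gives noisier arrays less say, called 3 members: Lyz2, Axl and Siglec1. The same fit called 3697 of the 16475 genes in either direction, a larger share than among the 39.

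The next comparison sets onset against non-proteinuric kidneys at the same age of 23 weeks. Of the 39 members 10 rose and none fell, on a background of 1.71% of genes called higher and 0.388% lower. Recognition receptors made up 5 of the 10 (Clec4a3, Cd14, Mrc1, Clec7a and Clec4n), general phagocyte markers 3 (Lyz2, Cd53 and Cd68), and the growth factor axis 2 (Spi1 and Csf1r). The median change over the members was 0.52, against −0.02 over all genes, and 6 members rose at least 2-fold, as did 35 of all genes. None of the members of the oxidase, of clearance, of costimulation or of the activation-state group passed. In whole tissue, more phagocytes, more RNA per phagocyte and RNA made by other kidney cells cannot be told apart, here or below.

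Clec4a3, a C-type lectin of the DCIR family found on monocytes and macrophages, ran from 5.27 to 6.07 (median 5.55) in the non-proteinuric kidneys and from 5.79 to 8.94 (median 7.27) at onset. It rose by 1.69 ± 0.41 (3.22-fold; adjusted p = 0.0252), with the onset samples split into a low and a high set that reached far beyond the others. Lyz2 ran from 8.88 to 10.17 before and from 9.78 to 11.61 at onset, a rise of 1.31 ± 0.26 (adjusted p = 0.00665) with some overlap. Cd68, an endosomal glycoprotein and a standard macrophage marker, lay at 5.83 to 6.71 before and 6.79 to 8.21 at onset and so did not overlap (1.10 ± 0.20, adjusted p = 0.00498). The mannose receptor Mrc1, which takes up glycoproteins, was the other member without overlap, at 6.62 to 7.07 against 7.17 to 9.07 (1.02 ± 0.21, adjusted p = 0.00775). Such separation held for 0.546% of all genes.

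The other 6 calls had adjusted p-values closer to the threshold. Cd53, a leukocyte tetraspanin, rose by 1.19 ± 0.32 (adjusted p = 0.0406). Cd14, the co-receptor for bacterial lipopolysaccharide, rose by 1.06 ± 0.29 (adjusted p = 0.0476), from 7.69 to 8.87 before to 8.56 to 10.10 at onset. Clec7a (Dectin-1, a receptor for fungal glucans) rose by 0.88 ± 0.24 (adjusted p = 0.0459), and Clec4n (Dectin-2) by 0.67 ± 0.18 (adjusted p = 0.0412). Spi1 rose by 0.59 ± 0.15 (adjusted p = 0.0312) and Csf1r, the receptor on which macrophages depend, by 0.33 ± 0.09 (adjusted p = 0.0491). Among those that did not pass, Cd52 had 1.11 ± 0.35 (adjusted p = 0.0824) and Wfdc17 0.94 ± 0.33 (adjusted p = 0.124).

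The onset calls depended on single arrays and on the model. Without onset replicate 5, the sample with the high Gapdh ratio, only Cd68 passed; without onset replicate 1, the lowest in score, 16 members did. Cd68 passed in each of the 25 alternatives run. With the hybridization controls as a covariate 1 member was called and with the Gapdh ratio 3, while the members' median change was 0.60 and 0.47.

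**Figure D2:**
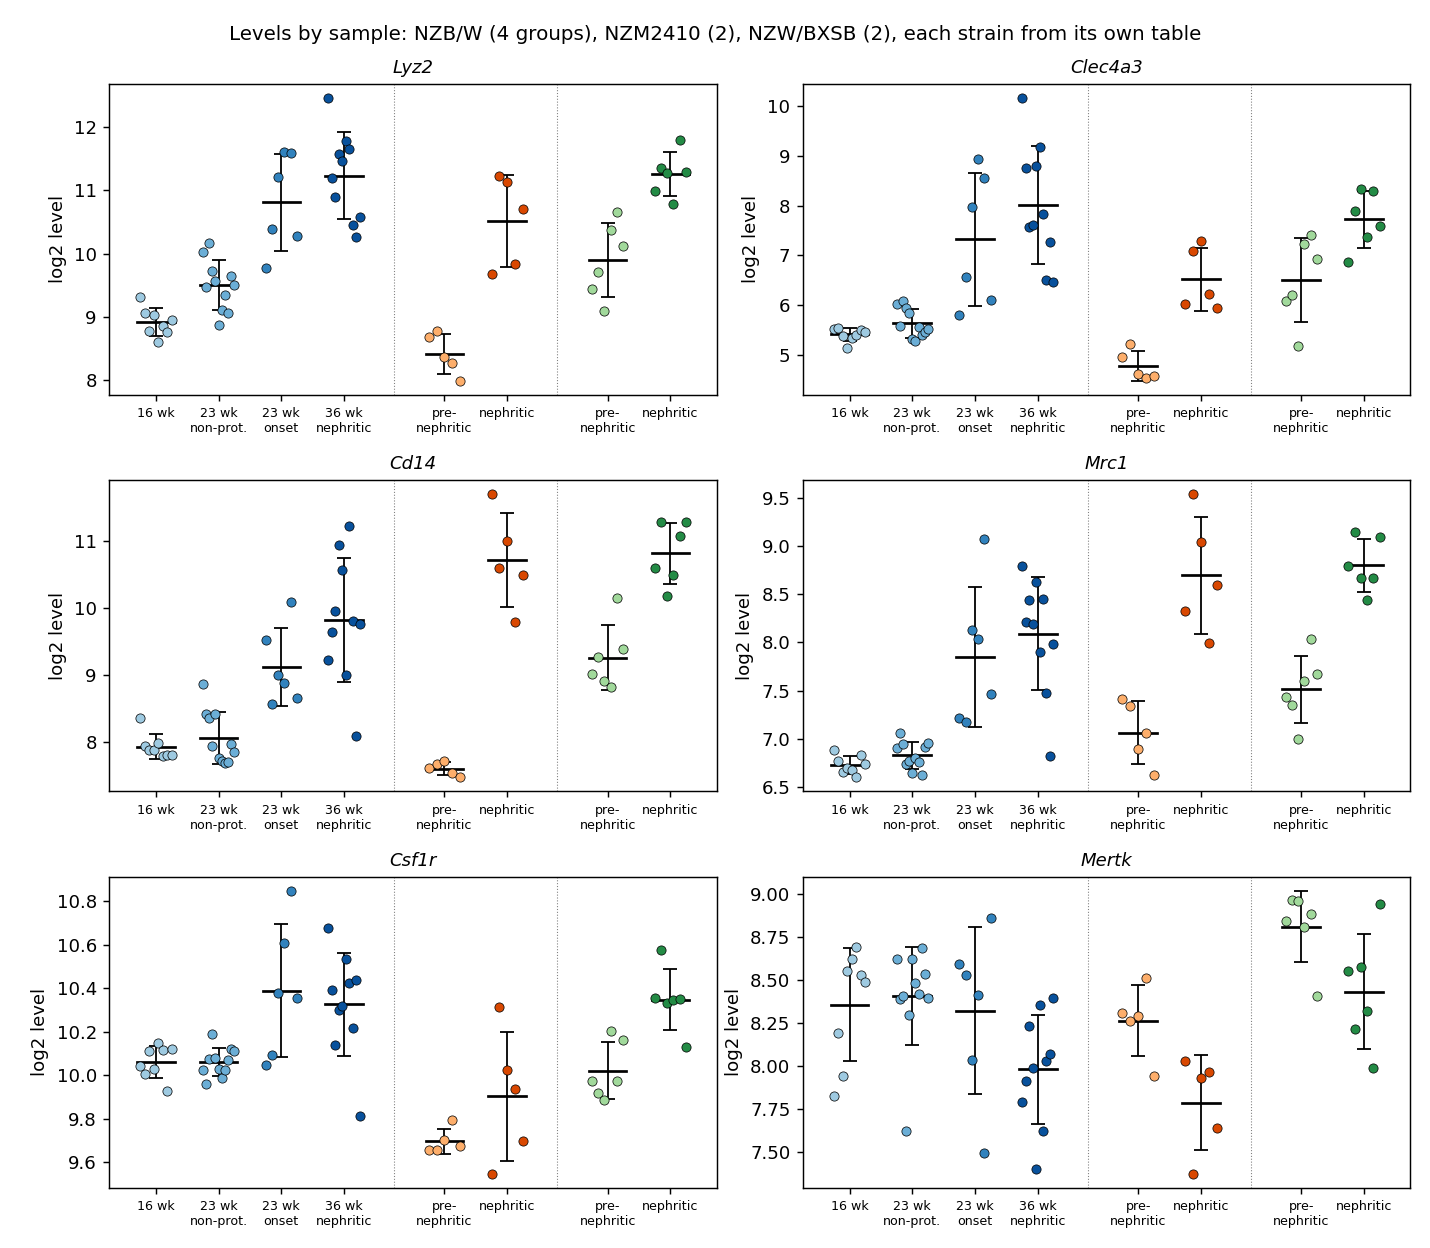
Log2 level of 6 member genes in every sample (points), by group, with means (horizontal bars) and SD (vertical bars); each strain's values come from its own table. Nephritic kidneys lie above starting kidneys in Lyz2 without overlap, Csf1r moves within a narrow range, and the nephritic means of Mertk lie lower in all 3 strains, called in NZM2410 alone.

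Established nephritis at 36 weeks was compared with 16 weeks, so that age and stage differ together. Of the 39 members 33 rose and none fell, where 11% of all genes were called higher and 15.3% lower. The members' median change was 0.97, against −0.01 over all genes, and 19 members rose at least 2-fold, out of 211 such genes. The Gapdh 3′ minus 5′ signal was 0.20 ± 0.19 (SD, n = 10) at 36 weeks and 0.015 ± 0.096 (n = 8) at 16 weeks (two-sided exact permutation p = 0.0198, adjusted p = 0.138), with the highest values in 36-week replicates 1 (0.57), 4 (0.35) and 9 (0.34). With that signal as a covariate 29 members rose and their median change was 0.74, while the calls over all genes went from 4338 to 2527. All 10 general phagocyte and leukocyte markers passed, all 4 members of the growth factor axis, all 3 of costimulation and inhibition, 6 of 9 recognition receptors, 5 of 6 clearance genes, 3 of 4 oxidase genes and 2 of 3 activation-state genes.

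Clec4a3 again moved most. It lay at 5.13 to 5.53 (median 5.43) at 16 weeks and at 6.46 to 10.17 (median 7.72) at 36 weeks, a rise of 2.61 ± 0.39 (6.09-fold; adjusted p = 1.17e-05). Cd53 went from 6.47 to 6.82 to a range of 7.82 to 10.80 (2.32 ± 0.30, adjusted p = 2.08e-06), and Lyz2 from 8.60 to 9.31 to a range of 10.26 to 12.47 (2.31 ± 0.25, adjusted p = 1.62e-07). The ranges of these 3 genes did not overlap. Cd52, a small glycoprotein shared by lymphocytes and phagocytes, rose by 2.18 ± 0.32, but its lowest 36-week sample (8.62) was below the highest 16-week sample (8.80). Cd14 rose by 1.89 ± 0.27, with 36-week values from 8.10 to 11.23 that reached into the 16-week range of 7.79 to 8.36. Wfdc17, a secreted protein of activated macrophages, rose by 1.80 ± 0.31. Cybb, the catalytic subunit of the phagocyte oxidase, rose by 1.72 ± 0.22 and Cd68 by 1.71 ± 0.19, both without overlap. In all, 10 members did not overlap between 16 and 36 weeks, where 1.38% of all genes did not.

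The oxidase genes did not move as a block. Cybb ran from 6.65 to 7.06 at 16 weeks and from 7.5 to 9.6 at 36 weeks. Its cytosolic partners Ncf4 and Ncf1 rose by 1.32 ± 0.19 and 0.47 ± 0.09. Cyba, which encodes the membrane partner of Cybb and also serves oxidases of other cells, was at 12.24 to 12.55 at 16 weeks and 11.77 to 12.55 at 36 weeks (−0.18 ± 0.09, adjusted p = 0.146). Among the fixed list of oxidase partners, 4 of 7 rose and 1 fell, where 11% of all genes were called higher and 15.3% lower. Rac2, a leukocyte GTPase that activates the oxidase, rose by 0.78 ± 0.13, and Nox4, the oxidase of tubular epithelium, fell by 1.36 ± 0.25.

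Among receptors for dying cells Axl passed and Mertk did not. Axl rose by 1.09 ± 0.12 (adjusted p = 2.52e-07), from 7.29 to 7.86 at 16 weeks to 7.63 to 9.13 at 36 weeks. Mertk, a receptor of the same TAM family, had −0.37 ± 0.16 (adjusted p = 0.0732), from a median of 8.51 to 8.01 with wide overlap. Apoe, the lipid carrier, rose by 0.97 ± 0.20, Lgals3 (galectin-3) by 0.96 ± 0.17, Trem2, a lipid-sensing receptor, by 0.32 ± 0.08, and Gpnmb, a glycoprotein of lipid-laden macrophages, by 0.29 ± 0.09. Of 24 measured partners in clearance and lipid handling, 8 rose and 4 fell, where 11% of all genes were called higher and 15.3% lower. The count of falls is near that share. Abca1, the cholesterol exporter, rose by 0.78 ± 0.19, and Pros1, a ligand of TAM receptors, by 0.73 ± 0.12. The scavenger receptor Stab2 fell by 0.76 ± 0.14.

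In the growth factor axis Spi1 rose by 0.77 ± 0.14, Csf1, the ligand of Csf1r, by 0.55 ± 0.11, Csf2rb, the shared chain of the GM-CSF receptor, by 0.38 ± 0.11, and Csf1r by 0.26 ± 0.09. Csf1r itself thus moved far less than the marker genes, with 36-week values from 9.81 to 10.68 around the 16-week range of 9.93 to 10.15. Of 16 partners in this axis 9 rose and 1 fell, where 11% of all genes were called higher and 15.3% lower. The rises were led by Csf2ra (0.82 ± 0.15), Cebpb (0.76 ± 0.18) and Il34, the other ligand of Csf1r (0.74 ± 0.14). Cd83, a marker of activated antigen-presenting cells, rose by 1.04 ± 0.20, Cd86, a costimulator of T cells, by 0.56 ± 0.10, and Cd300a, an inhibitory receptor, by 0.21 ± 0.06. Hmox1, the haem-degrading enzyme, rose by 0.84 ± 0.23.

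The other general markers were called too: the pore-forming protein Mpeg1 (1.64 ± 0.22), the lysosomal protein Laptm5 (1.48 ± 0.23), Aif1, known as Iba1 (1.48 ± 0.30), the endolysosomal nuclease Pld4 (1.31 ± 0.22), and the integrin chains Itgax (1.18 ± 0.23) and Itgam (1.14 ± 0.20). So were Mrc1 (1.36 ± 0.20), Clec7a (1.07 ± 0.23), Clec4n (0.80 ± 0.17) and Msr1, a scavenger receptor (0.41 ± 0.11). Beside Cyba and Mertk, 4 members did not pass: Cd163, the haemoglobin scavenger receptor (0.25 ± 0.16), the scavenger receptor Marco (0.13 ± 0.06), the sialic acid-binding Siglec1 (0.11 ± 0.07) and Arg1, arginase of alternatively activated macrophages (−0.01 ± 0.07). Marco and Arg1 lack the authors' flag in this strain. Cd163 carries it, though its mean level at 16 weeks (4.76) was as low as that of Marco (4.79). All 33 calls held when each of the 18 samples was left out in turn.

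**Figure D3:**
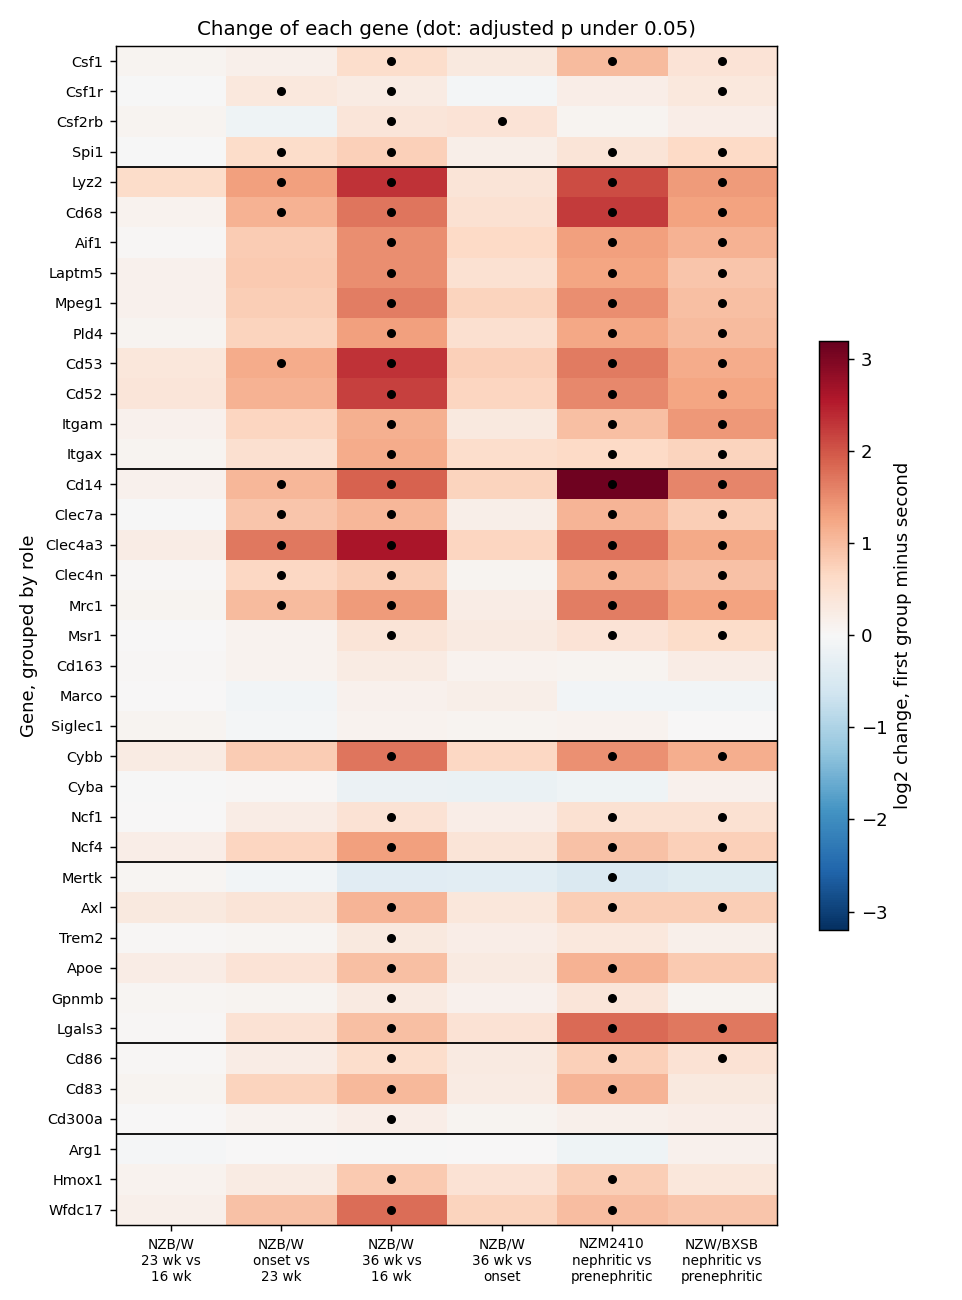
Log2 change of each of the 39 genes (rows, grouped by role) in 6 comparisons (columns); red is higher in the first group named, blue lower, and a dot marks an adjusted p under 0.05. Dots number 0, 10, 33, 1, 30 and 25 from left to right, and all but Mertk in NZM2410 mark rises. The 4 NZB/W columns share sample groups.

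Nephritic 36-week kidneys were then set against onset kidneys, which differ in age as well. Only Csf2rb was called, at 0.44 ± 0.12 (adjusted p = 0.0499), and no member fell, where 0.571% of all genes were called higher, 1.75% lower, and 0.091% did not overlap. Csf2rb ran from 5.64 to 6.34 at onset and from 6.23 to 6.96 at 36 weeks. The members' median change was 0.30, against 0.001 over all genes, and 36 of the 39 lay above 0, with 19 past an unadjusted p of 0.05, as were 23.9% of all genes. Cd53 had the largest value (0.77 ± 0.33, adjusted p = 0.15). Over the NZB/W groups, the mean of 30 members was higher at each step from 16 weeks to 36 weeks and that of 35 was highest at 36 weeks; these comparisons share groups and do not support each other. Without onset replicate 5, 9 members passed; without 36-week replicate 9, 8 did, without replicate 10, 3, and without replicate 8, 2; in 11 of the 16 fits that left out a sample, none did.

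In NZM2410, 29 members rose with nephritis and 1 fell, where 11.4% of all genes were called higher and 13.8% lower. The members' median change was 0.95, against −0.01 over all genes, and 18 members rose at least 2-fold, out of 316 such genes. Cd14 was far the most affected. Its 5 prenephritic levels were 7.61, 7.67, 7.72, 7.54 and 7.48 and its 5 nephritic levels 11.70, 10.61, 11.01, 9.79 and 10.49. The rise of 3.12 ± 0.26 is an 8.68-fold difference (adjusted p = 5.78e-05), and the groups were over 2 log2 units apart at their closest.

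Cd68 stood at 6.28, 6.19, 6.16, 5.83 and 5.65 before nephritis and at 8.44, 7.86, 8.65, 7.95 and 8.39 with it, a rise of 2.24 ± 0.17 (adjusted p = 2.34e-05). Lyz2 was at 8.69, 8.78, 8.37, 8.26 and 7.99 before and at 9.68, 11.23, 11.13, 9.84 and 10.71 after (2.10 ± 0.29, adjusted p = 0.000524). The nephritic samples of Lyz2 spread over more than a doubling, but all lay above the prenephritic ones. Lgals3 was at 10.14, 10.28, 10.22, 10.24 and 9.97 before and at 12.17, 12.07, 12.28, 11.22 and 12.19 after (1.82 ± 0.17, adjusted p = 0.000119), with nephritic replicate 4 lower than the rest. Clec4a3 (1.74 ± 0.26), Cd53 (1.66 ± 0.27), Mrc1 (1.63 ± 0.26) and Cd52 (1.54 ± 0.24) followed. In all 27 members did not overlap between the stages, as against 7.81% of genes.

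Mertk was the member that fell. Its prenephritic levels were 8.31, 8.26, 8.29, 8.51 and 7.94 and its nephritic levels 8.03, 7.38, 7.93, 7.96 and 7.64 (−0.47 ± 0.14, adjusted p = 0.0224), so the groups overlapped through the lowest prenephritic sample. The call was lost when prenephritic replicate 1 or 4 or nephritic replicate 5 was left out. Axl rose by 0.78 ± 0.11 in the same kidneys, Apoe by 1.11 ± 0.15 and Gpnmb by 0.39 ± 0.11. Csf1 rose by 1.01 ± 0.12 (adjusted p = 0.000264), from 7.11, 7.07, 7.11, 7.14 and 7.26 to 8.45, 8.14, 8.40, 7.71 and 8.05, while its receptor Csf1r had 0.21 ± 0.12 (adjusted p = 0.259). Il34 rose as well, by 1.88 ± 0.20.

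The remaining NZM2410 rises ran from 0.41 for Spi1 to 1.48 for Mpeg1. Cybb rose by 1.46 ± 0.19, Aif1 by 1.31 ± 0.22, Laptm5 and Pld4 each by 1.25, Clec4n by 1.09 ± 0.36, Cd83 by 1.08 ± 0.23, Clec7a by 1.08 ± 0.26 and Wfdc17 by 0.99 ± 0.21. Itgam and Ncf4 each rose by 0.95, Hmox1 by 0.79, Cd86 by 0.76, Itgax by 0.64, Ncf1 by 0.49 and Msr1 by 0.45. The 9 members that did not pass were Csf1r, Csf2rb, Cd163, Marco, Siglec1, Cyba, Trem2 (0.35 ± 0.12, adjusted p = 0.0513), Cd300a and Arg1, whose values lay between −0.14 and 0.35. Of the 30 calls in either direction, 25 held with each of the 10 samples left out in turn.

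In NZW/BXSB, 25 members rose and none fell, where 11.4% of all genes were called higher and 8.73% lower. The median change was 0.75, against −0.03 over all genes, and 12 members rose at least 2-fold, out of 184 such genes. Lgals3 led, from 9.97 to 10.65 (median 10.18) before to 11.36 to 12.70 (median 11.79) with nephritis, a rise of 1.69 ± 0.19 (3.22-fold; adjusted p = 0.000277). Cd14 went from 8.82 to 10.16 to a range of 10.19 to 11.29 (1.56 ± 0.24, adjusted p = 0.00113), so that the groups nearly touched. Itgam, the integrin chain of the CR3 complement receptor, lay at 5.53 to 6.76 before and 7.32 to 8.17 after (1.40 ± 0.23, adjusted p = 0.00141).

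Lyz2 rose by 1.35 ± 0.25, Mrc1 by 1.29 ± 0.16, Cd68 by 1.28 ± 0.22, Cd52 by 1.27 ± 0.32 and Clec4a3 by 1.22 ± 0.36. Clec4a3 was the loosest of these: its prenephritic levels ran from 5.17 to 7.42 and its nephritic ones from 6.87 to 8.34, and the call was lost without prenephritic replicate 1, 2 or 3 or nephritic replicate 2, 3 or 5. In all, 14 members did not overlap, as against 5.03% of genes. Cd53 (1.18 ± 0.27), Cybb (1.16 ± 0.21), Aif1 (1.12 ± 0.27) and Pld4 (1.0 ± 0.16) rose by 1 or more. The other 13 rises ran from 0.33 ± 0.08 for Csf1r to 0.96 ± 0.17 for Mpeg1, with Spi1 at 0.63 ± 0.14 and Csf1 at 0.43 ± 0.09.

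Of the 14 members that did not pass in NZW/BXSB, Wfdc17 (0.88 ± 0.30, adjusted p = 0.0561) and Apoe (0.83 ± 0.28, adjusted p = 0.0543) had values near those of called genes with larger errors. Mertk had −0.38 ± 0.14 (adjusted p = 0.0809), Hmox1 0.35 ± 0.38 and Cd83 0.30 ± 0.19. The others were Csf2rb, Cd163, Marco, Siglec1, Cyba, Trem2, Gpnmb, Cd300a and Arg1, between −0.09 and 0.25.

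The 3 nephritis comparisons used separate samples, since each strain supplied its own starting group. Of the 39 members 24 rose in all 3, where 4.25% of all genes did so, 6 in 2, 3 in 1 (Csf2rb, Trem2 and Cd300a, each in NZB/W) and 6 in none. Those 6 were Mertk, Cyba, Cd163, Siglec1, Marco and Arg1. Without overlap in all 3 strains were 8 members: Cd68, Lyz2, Cybb, Itgam, Laptm5, Mpeg1, Pld4 and Lgals3, where 0.564% of all genes were. The general phagocyte markers were the role in which every member rose in each strain, 10 of 10 in all 3.

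Whether the change differed between strains was tested on the difference itself, over all genes and 3 strain pairs. Between NZM2410 and NZW/BXSB, 3 members changed more in NZM2410 and none less, where 1.94% and 3.59% of all genes did so. Cd14 differed by 1.56 ± 0.36 (95% interval 0.82 to 2.30, adjusted p = 0.0137), Cd68 by 0.96 ± 0.28 (0.38 to 1.53, adjusted p = 0.0443) and Csf1 by 0.58 ± 0.15 (0.27 to 0.90, adjusted p = 0.0272). Stages, and the ages not stated, may differ between the strains, and prenephritic Cd14 was at 7.61 (median) in NZM2410 and 9.15 in NZW/BXSB, in tables that may have been normalized apart. With quantile normalization Cd68 no longer passed (0.96, adjusted p = 0.052), which left 2 members. Leaving out any of 5 NZM2410 samples (prenephritic replicates 2, 3 and 4, nephritic replicates 1 and 3) lowered the count to 1.

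NZB/W at 36 weeks differed from NZM2410 in no member, where 0.771% of all genes changed more in NZB/W and 0.947% less. The nearest were Lgals3 (−0.86, 95% interval −1.36 to −0.37, adjusted p = 0.0572) and Cd14 (−1.22, interval −1.99 to −0.45, adjusted p = 0.0824), both larger in NZM2410. Against NZW/BXSB none passed either, where 1.66% of genes changed more and 4.12% less. The nearest were Cyba (−0.32, interval −0.54 to −0.10, adjusted p = 0.0679) and Lgals3 (−0.73, interval −1.25 to −0.22, adjusted p = 0.0751), both more positive in NZW/BXSB. Cd53 (1.14, interval 0.32 to 1.95, adjusted p = 0.0804) and Lyz2 (0.96, interval 0.25 to 1.66, adjusted p = 0.0883) followed, both larger in NZB/W. Intervals of this width leave room for differences of about a doubling in many members, so the strains are not shown to act alike.

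**Figure D4:**
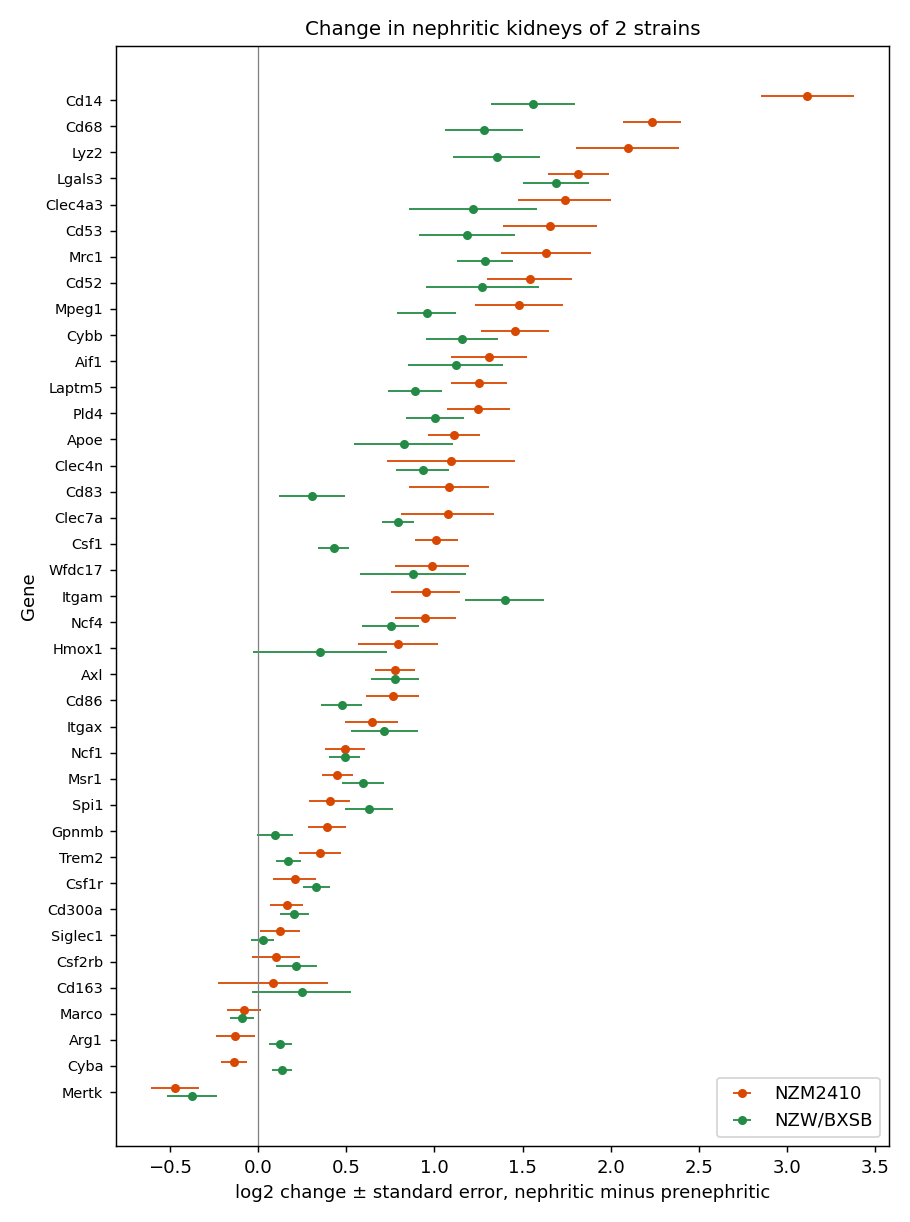
Log2 change with nephritis (points) and its standard error (bars) for each of the 39 genes in NZM2410 and NZW/BXSB, ordered by the NZM2410 change. Cd14 stands at 3.12 against 1.56, Cd68 at 2.24 against 1.28 and Csf1 at 1.01 against 0.43; those 3 differed at an adjusted p under 0.05.

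Of 24 other phagocyte genes outside the 39, 0 rose at 23 weeks without proteinuria and 10 at onset, where 0.0182% and 1.71% of all genes did. Counts were 21 at 36 weeks against 16 weeks, 20 in NZM2410 and 19 in NZW/BXSB, on backgrounds of 11%, 11.4% and 11.4%. Between onset and 36 weeks 0 of the 24 passed, and none fell in any comparison. C1qb, a chain of the first complement component made by macrophages, rose by 1.55 ± 0.33 at onset, 2.55 ± 0.30 at 36 weeks, 1.91 ± 0.22 in NZM2410 and 1.52 ± 0.24 in NZW/BXSB. Ctss, a lysosomal protease of antigen-presenting cells, rose by 1.48 ± 0.28 at onset and 2.17 ± 0.25 in NZM2410. Ccr2, the receptor that draws monocytes from blood, led in NZW/BXSB at 1.63 ± 0.25. Ms4a7, a macrophage membrane protein, rose by 1.33 ± 0.34 at onset, 2.40 ± 0.32 at 36 weeks and 1.49 ± 0.33 in NZW/BXSB.

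Of 16 partners in receptor signalling, 13 were called higher at 36 weeks, 7 in NZM2410 and 10 in NZW/BXSB, against the same backgrounds of 11%, 11.4% and 11.4%, with none at onset and none lower. Clec4a2 (DCIR), an inhibitory lectin of the same gene cluster as Clec4a3, rose by 1.40 ± 0.24, 0.89 ± 0.13 and 0.77 ± 0.14 in the same order of strains, and Syk, the kinase below Dectin-type receptors, by 0.69 ± 0.12 in NZB/W. Whether probes are shared between such near-identical genes (Clec4a2 and Clec4a3, Lyz1 and Lyz2, Csf2rb and Csf2rb2) cannot be checked in these tables. Of 14 genes of alternative activation, 5 were called higher at 36 weeks, 1 in NZM2410, which is below the background share, and 4 in NZW/BXSB. Of 13 genes of inflammatory activation the counts were 6, 4 and 2, the last near the background share. At onset 0 and 1 genes of these lists were called higher, where 1.71% of all genes were. Tgfb1, a fibrosis-promoting cytokine, rose in all 3 strains (0.96 ± 0.18, 0.70 ± 0.13 and 0.75 ± 0.09). Il1b, an inflammatory cytokine, rose by 0.74 ± 0.20 at onset, 1.04 ± 0.19 at 36 weeks and 0.57 ± 0.18 in NZM2410, and Il6 by 1.12 ± 0.26 in NZW/BXSB. In NZM2410 and NZW/BXSB, 8 of 24 partners in clearance were called higher in each and 4 and 3 lower, and 5 and 4 of 16 partners in the growth factor axis were called higher and 2 and 0 lower, where 13.8% and 8.73% of all genes were called lower.

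Markers of other cell types moved too, and some members, such as Cd52, Cd53, Laptm5 and Cd86, are shared with lymphocytes. At onset no marker of neutrophils, dendritic, T, B, NK, plasma or mast cells passed. Of all genes 1.71% were called higher there and 0.388% lower. At such shares lists this short would hold few calls or none. At 36 weeks 9 of 10 plasma cell, 9 of 12 T cell, 6 of 8 B cell, 5 of 9 NK cell, 2 of 10 neutrophil and 1 of 10 dendritic cell markers rose, where 11% of all genes did. The neutrophil and dendritic cell counts are near that share. Igkc, the kappa light chain of antibodies, rose by 3.96 ± 0.42, Cd3g, a chain of the T cell receptor complex, by 1.36 ± 0.25, Cd79b of the B cell receptor by 1.70 ± 0.29 and the neutrophil protein S100a9 by 0.66 ± 0.24. The mean level of the T cell markers ran from 5.46 to 5.69 at 16 weeks and 5.51 to 6.85 at 36 weeks, and that of the B cell markers from 5.58 to 6.0 and from 5.85 to 7.17. Plasma cell markers were the only ones already called at 23 weeks without proteinuria (3 of 10; Igkc rose by 2.93 ± 0.41). These 3 were all the genes called in that comparison, 0.0182% of the total.

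In NZM2410, 7 of 10 plasma cell, 4 of 12 T cell and 2 of 9 NK cell markers rose. So did 1 of 8 B cell and 1 of 7 mast cell markers, where 11.4% of all genes were called higher. The NK, B and mast cell counts are near that share. No neutrophil or dendritic cell marker passed (Cxcr2 had −0.44, adjusted p = 0.117). Only 2 of 10 plasma cell, 1 of 12 T cell and 1 of 9 NK cell markers rose in NZW/BXSB, where 11.4% of all genes did. The plasma, T and NK cell counts are near that share. Of 10 neutrophil markers 1, Cxcr2, fell by 0.32 ± 0.10, near the 8.73% of all genes called lower. The mean neutrophil level was 5.21 to 5.68 before and 5.07 to 5.45 with nephritis in NZM2410, and 6.08 to 6.36 and 6.02 to 6.67 in NZW/BXSB. Kidney epithelial markers fell in 6 of 9 at 36 weeks, 5 in NZM2410 and 2 in NZW/BXSB, and none rose. In the same order 15.3%, 13.8% and 8.73% of all genes were called lower. Slc5a2, the glucose transporter of the proximal tubule, fell by 1.34 ± 0.21 at 36 weeks and 1.56 ± 0.28 in NZM2410. Array levels have a floor above 0, so absence of a cell type cannot be read from them. The part of lymphocytes, of other kidney cells that may make member RNA, or of fewer tubule cells, in the members' changes was not tested.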

How the data were processed

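RNA of 57 whole-kidney samples was measured on Affymetrix arrays from labelled cRNA, per the labels' protocols. The authors deposited log2 expression levels, which the submitters' processing notes credit to RMA (robust multi-array average: background correction, normalization between arrays and summary over probes), version not given. The array type and its definition of probe sets are not given in the sources used here. Each strain had its own table of 16475 genes and 64 array controls, possibly normalized apart. Array medians ran from 6.97 to 7.06 in NZB/W, 7.12 to 7.20 in NZM2410 and 7.68 to 7.75 in NZW/BXSB. Strains were therefore compared only through changes within a table. RMA compresses differences of dim genes, and the number of arrays limits precision: the median standard error of a member's change ran from 0.161 to 0.204 over the 6 comparisons.

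Samples were grouped by the labels. In R 4.3.3, limma 3.58.1 (lmFit, eBayes) fitted group means per table over all genes with no filter, with Benjamini-Hochberg adjustment over all genes and an adjusted p under 0.05 as a call. Strain differences used the summed variances of the fitted changes and Satterthwaite degrees of freedom. Control signals were compared with exact permutation tests in Python 3.11.15 (numpy 2.4.6, scipy 1.17.1). The fit was tested on simulated data. Replicate numbers were not taken as pairs, since the labels do not pair samples and deviations of same-numbered samples correlated at −0.44 to 0.43. Members, gene lists and tests were chosen with earlier results of these data known. The text names, per comparison, up to 8 called members of largest change, members called against the majority, and up to 3 called genes per list, giving the rest as values or ranges. A gene that this rule would name is not reported here. Alternatives were quantile normalization, genes flagged expressed by the authors, array weights, title stem and replicate number as blocks, control signals as covariates, fits of 2 groups, and leaving out each sample. Gene IDs were named through RefSeq (16229 of 16475 matched). The series-wide table held the same values and was not used further.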

Additional observations from a re-analysis of the deposited data

Results flagged for a closer look

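Among 280 sets, the 39 genes and the score in each of 7 groups of 5 to 10 samples, 17 had 1 sample far from the others, judged by its gap to the nearest sample as a share of the group's range; chance gives about 1 in 20. Onset replicate 5 of NZB/W stood apart in 6 of them, highest for Clec7a (gap 0.76 of the range, 8.96 against 7.63 for the next sample), Lgals3 (0.753, 11.44 against 10.30), Csf1 (0.718, 7.90 against 7.43), Gpnmb (0.685, 6.34 against 5.88) and Cd163 (0.667, 5.46 against 4.92), and lowest for Cyba (0.664, 12.01 against 12.40). The same sample had the highest score of its group and a Gapdh 3′ minus 5′ signal of 0.46; its part in these values was not tested.

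At 16 weeks, NZB/W replicate 1 was highest for Cd14 (gap 0.656, 8.36 against 7.99) and Ncf1 (0.537, 6.17 against 6.02), and replicate 6 lowest for Marco (0.589, 4.64 against 4.77). At 36 weeks, replicate 3 was highest for Cd163 (0.564, 6.41 against 5.34) and replicate 9 lowest for Axl (0.579, 7.63 against 8.50). In NZM2410, prenephritic replicate 5 was highest for Siglec1 (0.812, 6.95 against 6.53) and nephritic replicate 4 lowest for Lgals3 (0.804, 11.22 against 12.07). In NZW/BXSB, prenephritic replicate 6 was highest for Trem2 (0.807, 7.29 against 7.06) and lowest for Mertk (0.718, 8.40 against 8.80), nephritic replicate 2 was highest for Clec4n (0.63, 6.61 against 6.22) and nephritic replicate 5 for Gpnmb (0.689, 7.82 against 7.5).

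The change with nephritis differed between NZM2410 and NZW/BXSB, by the test of the difference itself, for Cd14 (1.56), Cd68 (0.955) and Csf1 (0.583), each larger in NZM2410.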

How the results depend on the processing

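The counts of members that rose in nephritis kept within 1.5 times in all alternatives run: 33 to 33 of 39 in NZB/W (36 against 16 weeks) with each sample left out, 27 to 30 in NZM2410 and 24 to 27 in NZW/BXSB. Of the calls, 27 of 33, 25 of 30 and 21 of 25 held in every alternative. Over all genes the calls were 4338 at 36 against 16 weeks, against 6542 with array weights, 2371 with the title stem and 2527 with the Gapdh covariate; with array weights they went from 4161 to 6449 in NZM2410 and from 3319 to 5898 in NZW/BXSB. Members called lower went from 0 to 2 (Cyba and Mertk) in NZB/W with array weights and to 1 (Mertk) with the replicate block, with 16-week replicates 4 to 8 only, or without 16-week replicates 1 or 3 or 36-week replicate 10, from 1 to 0 in NZM2410 in some such fits, and from 0 to 1 in NZW/BXSB with array weights or without replicate 6 of either group.

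The 10 onset calls became 26 with array weights, 22 in a fit of the 2 groups alone, 3 with the Gapdh covariate, 1 with the hybridization covariate and 2 with the replicate block, and 1 (without onset replicate 5) to 16 (without onset replicate 1) with each sample left out. Without onset replicates 3 or 4 the count was 3, and without 9 of the 11 non-proteinuric samples, each in turn, 4 to 6. Over all genes the calls were 345, against 2167 with array weights, 1141 with 2 groups, 114 with the replicate block, 206 with the title stem, 189 and 147 with the covariates. The 1 member higher at 36 weeks than at onset became 0 with quantile normalization, the title stem, either covariate or 2 groups, 8 with array weights and 11 with the replicate block, and 0 to 9 with each sample left out; 1 fell with array weights, with the replicate block or without onset replicate 5. All-gene calls there were 382, against 2352 with array weights, 1882 with the replicate block, 205 with quantile normalization, 72 with the title stem, 110 and 10 with the covariates and 1 with 2 groups. Between 16 and 23 weeks 0 members became 3 with array weights (all genes: 3 and 3697) and stayed 0 with the title stem, 2 groups and 16-week replicates 4 to 8 only (all genes: 0, 19 and 33), the last chosen after seeing the data. The cause of these shifts was not tested.

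Strain differences ranged from 0 to 3 members for NZB/W against NZM2410, 0 to 4 for NZB/W against NZW/BXSB and 1 to 4 for NZM2410 against NZW/BXSB with each sample left out; with quantile normalization the last of these went from 3 to 2. Replicate numbers of the labels do not pair the samples. The title stem as a block was not run for NZM2410, where too few stems are shared. No change that was called took the opposite sign in any alternative.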
